A study of Drosophila melanogaster with 12 samples.

Results

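The proteasome subunit genes are 47 of the 17716 gene symbols in the count table, chosen by name: symbols beginning with Prosalpha or Prosbeta and a digit, or with Rpn or Rpt and a digit. By role they comprised 7 alpha-ring and 7 beta-ring subunits of the 20S core particle, 6 Rpt ATPases and 12 Rpn non-ATPase subunits of the 19S regulatory particle, and 15 second-copy forms whose symbols carry an R or a T. The rule reads symbols only and no measured value, although this gene family was taken up with earlier results of these data known. All 47 matched a current symbol of the Ensembl BDGP6 annotation, on chromosome arms 2L, 2R, 3L and 3R and on X.

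The proteasome degrades proteins tagged with ubiquitin. Substrates are bound by ubiquitin receptors of the regulatory particle, stripped of ubiquitin by Rpn11, unfolded by the ring of Rpt ATPases and threaded through the gate of the alpha rings into the chamber of the beta rings, where Prosbeta1, Prosbeta2 and Prosbeta5 carry the proteolytic sites. Because the subunits are built into one particle, their genes are known to be expressed together, in flies partly under the transcription factor CncC, and several second-copy forms of Drosophila are known from the male germ line.

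RNA was sequenced from wing imaginal discs of late Drosophila melanogaster larvae, the epithelial sacs that form the adult wing, dissected 6 days after egg laying, in 3 pools of 60 discs for each of 4 groups. WT discs, labelled as wild-type controls, carried abxUbx-Flp, Act>y+>Gal4, UAS eGFP and FRT82B tubGal80 over FRT82B. N discs carried the same set with UAS Nicd, which drives the active intracellular part of Notch in Gal4 cells, and NS discs added FRT82B scrib1, a mutant allele of the polarity gene scribble, in place of the plain FRT82B. S discs were FRT82B scrib1 over the deficiency Df(3R)BSC752 in a w- background, without Flp, Gal4 or eGFP, so S differs from WT in the driver background as well as in scribble. WT, N and NS discs are mosaics in which the abxUbx-Flp source sets the Gal4 cells, whereas S discs are mutant throughout, and each pool mixes all cells of the disc. In such bulk RNA, fewer cells of a type and less RNA per cell cannot be told apart. The genotype text of WT replicates 2 and 3 lists UAS Nicd although their condition is wild type, and both were kept as WT.

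Library totals ran from 21024017 to 42407447 counts. Levels of the gene N were 649, 885 and 707 CPM (counts scaled by library size) in WT. N libraries read 2236, 2015 and 2016, S libraries 656, 604 and 287, and NS libraries 1602, 1458 and 500.2. The library labelled NS3 thus stood below every WT library for the gene that its label says was driven. S3, whose genotype lists no UAS Nicd, stood lower still, and both libraries show a shift against long transcripts. The part of that shift in these levels was not tested. For scrib, WT libraries read 347 to 448 CPM, S libraries 208, 201 and 129, and NS libraries 394, 434 and 87.1; a mutant allele that still makes a transcript is not checked by its level. The library labelled NS3 also held 635 symbols found in no other library, against 10 to 109 in the others, and counts for all 8 testis markers, with a summed level of 52.9 CPM against 1.44 to 9.39 elsewhere. The 6 wing disc markers (nub, vg, sd, ap, Dll, en) were detected throughout, with a summed level from 665 CPM in the library labelled NS3 to 2512 in N1. S3 shared with it a shift against long transcripts to a smaller degree, so results are given with all 12 libraries and without NS3 and S3.

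Of the 47 members, 32 passed the low-count filter and were tested: 6 alpha, 7 beta, 5 Rpt and 12 Rpn subunits, together 30 subunits, and the second-copy forms Rpt3R and Rpt6R. Prosalpha1 was listed at 0 in 11 libraries, with 76 counts in WT3, and Rpt1 was listed at 0 in all 12, although both are obligate parts of the particle. Of 13838 protein-coding symbols, 1511 were listed at 0 everywhere. A 0 in these files can come from absent RNA or from the counting, and which of these holds was not tested. Prosalpha1 (dm6, 2R, 7827303 to 7828678) has an annotated close copy beside it, deposited as CG30382 and now named Prosalpha1R (2R, 7830413 to 7831771), which was listed at 0 except for 5 counts in NS2. The remaining 13 untested members are second-copy forms.

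Divided by exon length, transcripts of the core particle stood above those of the regulatory particle in wild-type discs. Per kilobase of exon, the median WT level was 243.6 CPM per kb over 6 alpha subunits, 226 over 7 beta subunits, 155 over 5 Rpt ATPases and 132 over 12 Rpn subunits. All 13 measured core subunits exceeded every regulatory subunit, from 204 ± 7.51 CPM per kb (SD, n = 3) for Prosbeta5, which carries the chymotrypsin-like site, to 304 ± 20.4 for Prosalpha2, a subunit of the outer ring. The highest regulatory subunits were the ATPase Rpt2, at 191 ± 8.69 CPM per kb, and the deubiquitinase Rpn11, at 189.9 ± 8.40, which did not differ beyond their spread. Lowest were the ubiquitin receptor Rpn13, at 103 ± 5.93, and the lid subunit Rpn3, at 108 ± 5.06, also within each other's spread. The 30 subunits thus spanned 2.96-fold in WT, and Prosalpha2 ranked between 1 and 3 in each of the 12 libraries while Rpn13 ranked between 26 and 30. Neighbours within the core, such as Prosbeta3 at 256 ± 20.6 and Prosalpha4 at 254 ± 12.7 CPM per kb, were closer than their SD. Exon length, used as the divisor, differed between the groups, with medians of 974.5 and 944 bases for alpha and beta and 1553 and 1675.5 for Rpt and Rpn. The order depended on this divisor. In CPM not divided by length, Rpn2, Rpn1 and Rpt2 had WT means of 426, 386 and 310, above the highest core subunit, Prosalpha4, at 298. The remaining measured regulatory subunits lay below Prosalpha4.

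**Figure D1:**
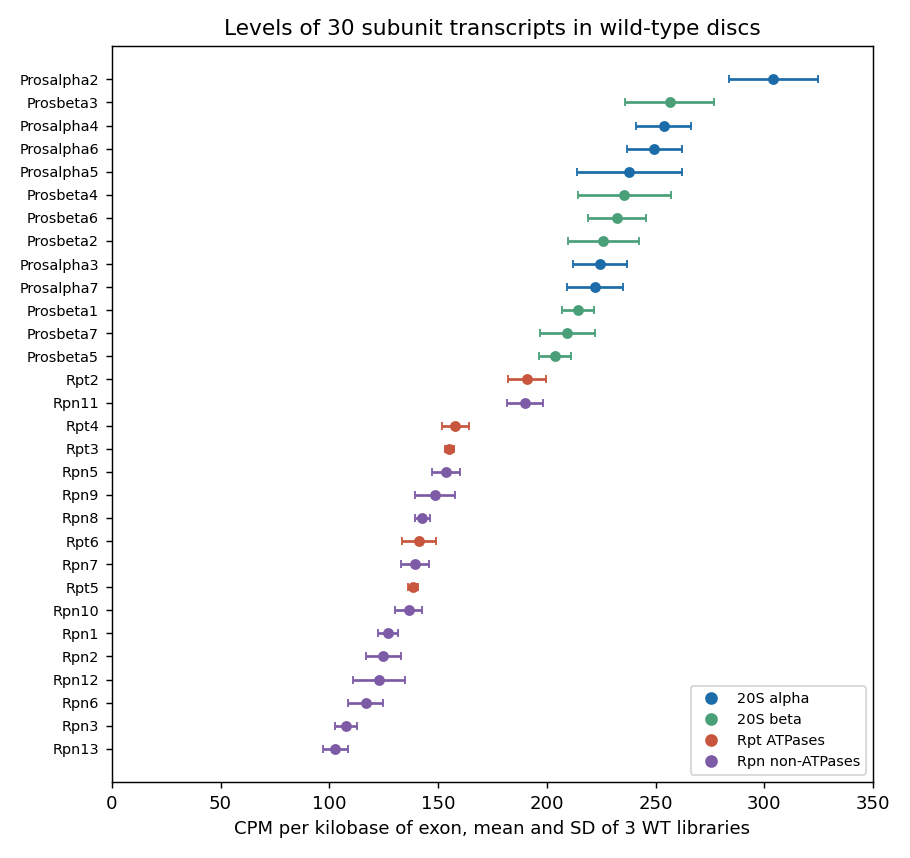
Level of each of the 30 subunit transcripts in WT discs, in CPM per kilobase of exon (points, mean of 3 libraries; bars, SD), coloured by role. The 13 core subunits lie between 204 and 304 CPM per kb, above Rpt2 at 191, and Rpn13 is lowest at 103.

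The 30 subunits varied little between pools of a group and between groups, with the exception of the library labelled NS3. They took 0.640% to 0.782% of all counts in the other 11 libraries and 1.03% in that one. Their summed level was 7167 ± 270.3 CPM (SD, n = 3) in WT, 6705 ± 213 in N and 7392 ± 691 in S, whereas in NS it was 7046, 6624 and 12079 CPM in the 3 libraries. The median coefficient of variation between replicates, over the 30 subunits, was 5.26% in WT, 4.28% in N, 11.2% in S and 39.8% in NS, and it was 4.90% between NS1 and NS2 alone. Over all tested genes the same median was 12.5% in WT, 8.59% in N, 16.7% in S and 30.6% in NS, so the subunit median was below that of all genes in WT, N and S and above it in NS. All tested genes were not matched to the subunits for expression level, so these medians do not set the subunits apart from genes of like level. Set against the WT mean of each subunit, the median log2 level of the 30 lay between -0.12 and 0.18 in the 11 other libraries and at 0.86 in the library labelled NS3. Of the 30, 28 were highest there; Rpn1 was highest in WT2 and Rpn2 in WT3. Over the other 11 libraries a subunit's highest level exceeded its lowest by 1.16-fold to 1.62-fold.

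**Figure D2:**
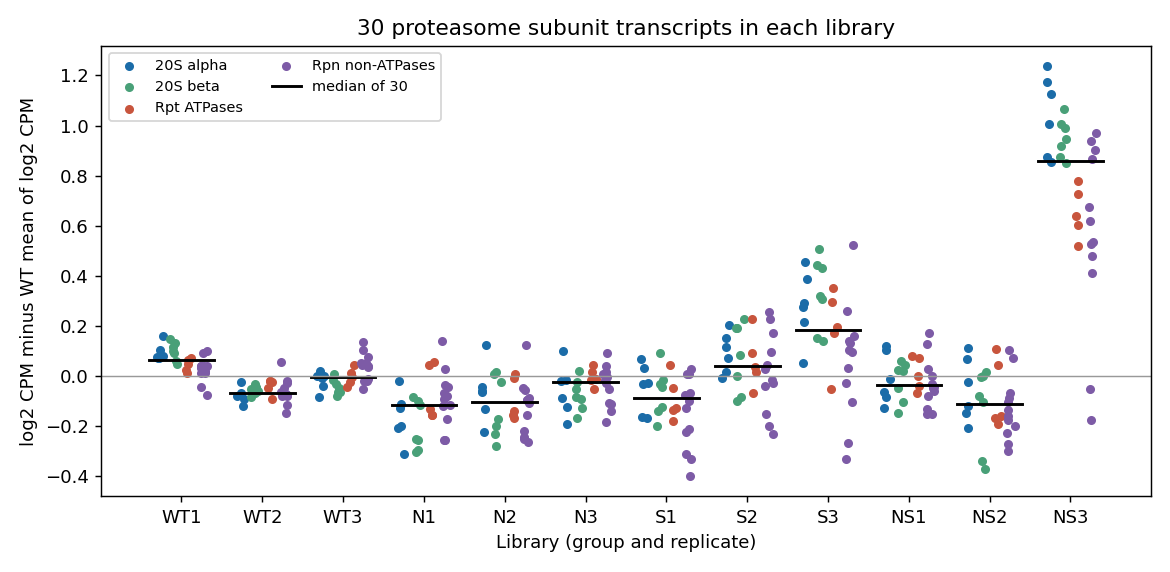
log2 CPM of each of the 30 subunits in each library minus that subunit's mean over the 3 WT libraries (points, coloured by role; black lines, median of the 30). The medians of 11 libraries lie between -0.12 and 0.18, and NS3 stands at 0.86.

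The tested subunits with the highest and the lowest mean CPM of each role, not divided by length, show the same pattern. In the alpha rings, Prosalpha4 read 314, 284 and 297 CPM in WT, 259.5, 272 and 280.2 in N, 266, 301 and 360.4 in S, and 281, 258 and 539 in NS. Prosalpha7, the lowest tested one of these rings, read 228, 203 and 219.6 CPM in WT, 201, 210.2 and 214 in N, 212, 235 and 265 in S, and 207, 213 and 472 in NS. In both, the library labelled NS3 was the only one far from the rest; N libraries lay below WT for Prosalpha4 and overlapped WT for Prosalpha7.

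Prosbeta7, the highest beta subunit in CPM, read 272, 246 and 245 CPM in WT, 235, 249.6 and 257 in N, 230.4, 254 and 317 in S, and 258, 236 and 480.2 in NS. The lowest, Prosbeta4, read 212, 181 and 183 CPM in WT, 156, 167 and 179 in N, 187, 203 and 237 in S, and 185, 181 and 369 in NS. For Prosbeta4 all 3 N libraries lay below all 3 WT libraries, by little, and S3 was the highest library apart from the one labelled NS3.

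Among the ATPases, Rpt2, one of the subunits whose tail opens the gate of the core in yeast, read 326, 299.6 and 305 CPM in WT, 278, 281 and 299 in N, 284, 318 and 355 in S, and 296, 276 and 482 in NS. Rpt6 read 205, 186 and 204 CPM in WT, 205, 199.5 and 197 in N, 181, 211 and 244 in S, and 208, 205 and 328 in NS, with 13% of its exon bases shared with a gene on the other strand, whose reads cannot be separated if counting ignored strand. N libraries fell just below WT for Rpt2 and among them for Rpt6.

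Rpn2, the scaffold on which Rpn13 docks, read 404, 417 and 457 CPM in WT, 413, 366 and 431 in N, 368, 418 and 338 in S, and 408, 364 and 377 in NS. Unlike the core subunits, it was not raised in the library labelled NS3, and S3 was its lowest library. Rpn12, a lid subunit with a short transcript, read 123, 110.1 and 134 CPM in WT, 134, 133 and 119 in N, 123, 145 and 175 in S, and 133, 131 and 239 in NS, with S3 and the library labelled NS3 above all others.

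The excess in the library labelled NS3 followed transcript length. On the log2 scale that library stood above the mean of NS1 and NS2 by a median of 1.05 for alpha, 1.01 for beta, 0.69 for Rpt and 0.68 for Rpn subunits, with Prosalpha5 at 1.30 and the longest, Rpn2, at -0.03. Across the 30 subunits this difference and exon length had a Spearman correlation of -0.775, and across 9379 tested genes with a length it was -0.743; the genes share the same libraries and are not independent replicates. The median of the 30 was 0.92, against 0.40 over the 3632 tested genes with 800 to 2000 bases of exon and 0.02 over all 9379. S3 differed from the mean of S1 and S2 in the same manner to a smaller degree, by a median of 0.25 over the 30 subunits against 0.14 over genes of that length, with Rpn1 at -0.24, Rpn2 at -0.21 and a Spearman correlation of -0.586. The part of testis RNA in these levels was not tested.

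**Figure D3:**
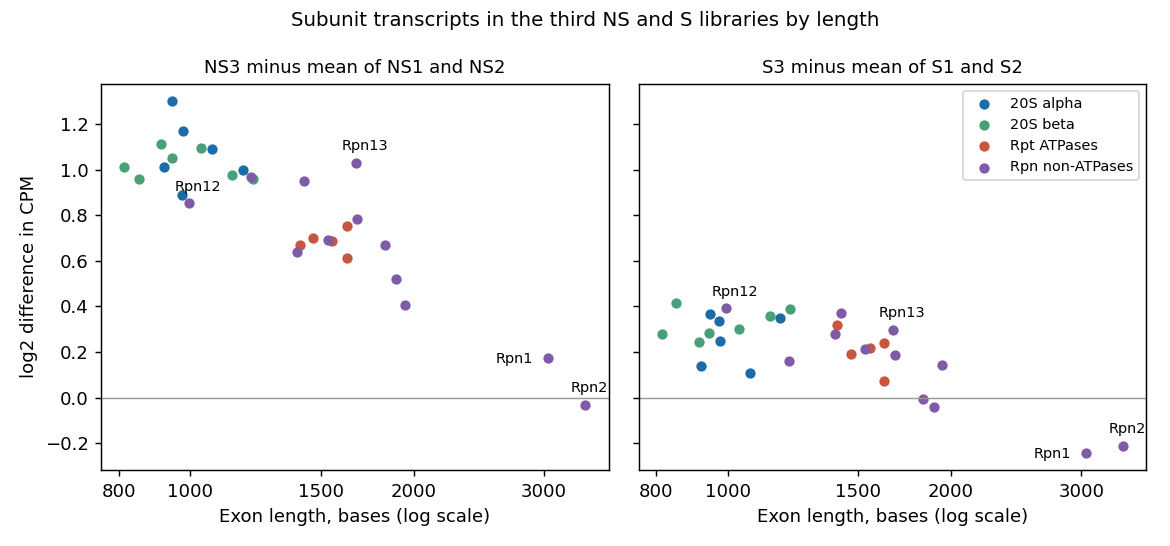
log2 difference in CPM of each of the 30 subunits against its exon length in bases (log axis), for NS3 minus the mean of NS1 and NS2 (left) and S3 minus the mean of S1 and S2 (right), coloured by role. Prosalpha5 lies highest in NS3, at 1.30, and Prosbeta1 in S3, at 0.42. Some regulatory subunits lie among the core ones, such as Rpn13 at 1.03 in NS3 and Rpn12 at 0.39 in S3. Rpn1 and Rpn2 lie lowest in both panels.

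No core or regulatory subunit passed the test with activated Notch, and the estimates lay slightly below 0. With all 12 libraries, 0 of the 32 tested members rose and 0 fell in N against WT (edgeR quasi-likelihood test, adjusted p under 0.05), where 1.05% of all 9444 tested genes rose and 2.03% fell. At an unadjusted p under 0.05 the number was 0, against 16.2% of all genes, and by DESeq2 it was 0 with 3.28% of all genes higher and 5.3% lower. The estimates were small, with 26 of 30 subunits below 0, a median log2 change of -0.09 against 0.01 over all genes, and a median SE of 0.23. The beta ring had a median of -0.19 and a range of -0.22 to -0.04, and the Rpn subunits a median of -0.08. With offsets corrected for exon length the median was -0.14, with 28 of 30 below 0. For 10 subunits (Prosalpha2, Prosalpha4, Prosbeta2, Prosbeta3, Prosbeta4, Prosbeta6, Rpn8, Rpn9, Rpn13 and Rpt2) every N library lay below every WT library, and 0 lay above, against 17.1% and 17% of all genes.

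Without NS3 and S3 the SE of a subunit shrank to a median of 0.08 and a pair of subunits was called lower in N. Rpn9, a lid subunit, read 267, 241 and 240.4 CPM in WT, 209, 211 and 219 in N, 228, 242 and 268 in S, and 236, 227 and 398 in NS. N libraries lay below WT libraries without overlap, and the log2 change was -0.25 ± 0.07 (SE, n = 3 against 3; edgeR, adjusted p = 0.0346) without NS3 and S3 but -0.23 ± 0.20 with them, and 15.7% of its exon bases are shared with genes on the other strand. Prosalpha2 read 300.5, 275 and 264 CPM in WT, 225, 239 and 245 in N, 249, 278 and 289.5 in S, and 256, 252 and 513 in NS. Its N libraries were also below all WT libraries, with a change of -0.24 with all libraries and -0.26 ± 0.08 (SE; edgeR, adjusted p = 0.0467) in the smaller set. In that fit 6.24% of 9598 genes were called higher and 9.03% lower, so 0 and 2 of 30 are no more than the shares of all genes. Of the 30 subunits, 8 had an unadjusted p under 0.05 there, against 30.5% of all genes. The Rpn9 and Prosalpha2 changes in N each passed the threshold in 1 of 21 alternatives, and in 0 of the single-library omissions.

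With scribble lost over the whole disc, none of the 30 subunits passed the test with all libraries, and the side of WT on which they lay depended on the correction for exon length. In S against WT, 0 of the 30 rose and 0 fell (edgeR; unadjusted p under 0.05 for 0, against 38.5% of all genes), where 12.5% of all genes rose and 10.6% fell, and DESeq2 called 0 of the 30 with 16.5% of all genes higher and 16.1% lower. The median log2 change was 0.05, against 0.04 over all genes, with 18 above 0 and 12 below, and it ran from -0.24 for Rpn8 to 0.27 for Rpn12. With length-corrected offsets the median was -0.13, against 0.01 over all genes, with 3 above 0 and 27 below. The role medians were 0.14 for alpha, 0.12 for beta and -0.02 for Rpn with all libraries, and 0.02, 0.01 and -0.07 without S3 and NS3. Their order turned with length-corrected offsets, at -0.15 for alpha, -0.17 for beta and -0.12 for Rpn. Prosbeta6 and the ATPase Rpt3 lay above all WT libraries in every S library, and Rpn8 and Rpt5 below, which are 2 of 30 in each direction against 27% and 23.8% of all genes.

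Without NS3 and S3, 3 of the 30 subunits, all regulatory, were called lower in S and 0 higher, where 24.1% of all genes were lower and 23.4% higher. At an unadjusted p under 0.05 there were also 3 of 30, against 55.5% of all genes. Rpn8, the inactive partner of the deubiquitinase Rpn11, read 225, 216 and 215 CPM in WT, 194, 196 and 202 in N, 166, 186 and 203 in S, and 196, 181 and 304 in NS. Every S library was below every WT library, and the change was -0.33 ± 0.07 (SE; edgeR, adjusted p = 0.00643) without NS3 and S3, -0.24 ± 0.18 with all libraries and -0.40 ± 0.10 (edgeR, adjusted p = 0.0115) with all libraries and offsets corrected for exon length. Leaving out NS3 alone gave -0.24 ± 0.09 (edgeR, adjusted p = 0.0484), within a range of adjusted p from 0.00643 to 0.661 over 21 alternatives. Rpn13, a ubiquitin receptor, read 183, 164 and 169 CPM in WT, 144, 144 and 159 in N, 136, 149.6 and 176 in S, and 157, 149.7 and 313 in NS. S1 and S2 were below WT and S3 was among the WT libraries, and the change was -0.28 ± 0.08 (SE; edgeR, adjusted p = 0.019) without NS3 and S3 and -0.16 ± 0.25 with them. Rpn10, another ubiquitin receptor, read 199.7, 184 and 199 CPM in WT, 185, 181 and 176 in N, 156, 175 and 214 in S, and 194, 181 and 362 in NS. Again S1 and S2 lay below WT and S3 above it, with a change of -0.24 ± 0.08 (SE; edgeR, adjusted p = 0.0273) without NS3 and S3 and -0.10 ± 0.24 with them. The Rpn13 and Rpn10 changes each passed the threshold in 1 of 21 alternatives, and in 0 of the single-library omissions. The length-corrected offsets called Rpn8 and Prosalpha2 lower, among 19% of all genes, with Prosalpha2 at -0.33 ± 0.09 (SE; edgeR, adjusted p = 0.0189).

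In discs with both changes, the direction of the 30 subunits changed when NS3 and S3 were left out, and none was called with all libraries. With all libraries, 0 of 30 rose and 0 fell in NS against WT (edgeR; unadjusted p under 0.05 for 0, against 38.8% of all genes), where 13.9% of all genes rose and 10.4% fell, and DESeq2 called 0 of the 30 with 17.2% of all genes higher and 14.8% lower. The median log2 change was 0.27 against 0.03 over all genes, with 28 of 30 above 0, and it ran from 0.46 in the alpha ring and 0.35 in the beta ring to 0.20 in Rpn and 0.18 in Rpt subunits. Without NS3 and S3 the median was -0.08, with 8 above 0 and 22 below (4 at an unadjusted p under 0.05, against 43.8% of all genes), and the role medians lay between -0.12 and -0.06. The length-corrected offsets, with all libraries kept, gave a median of -0.03, with 11 above 0 and 19 below. Rpn8 was the only subunit called without NS3 and S3, lower at -0.23 ± 0.07 (SE; edgeR, adjusted p = 0.0424), where 16.8% of all genes were called lower and 16.9% higher. With all libraries its change was 0.06 ± 0.18, and it passed the threshold in 1 of 21 alternatives and in 0 of the single-library omissions.

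Rpt3, an ATPase, and Prosalpha3 were above WT in all 3 NS libraries, and Rpn1, the docking site of ubiquitin shuttle factors, was below, against 21.8% and 21.4% of all genes. Rpt3 read 243, 237 and 243 CPM in WT, 250.4, 239.6 and 249 in N, 248, 282 and 308 in S, and 255, 259 and 414 in NS. It lay above WT in S and NS without overlap and overlapped WT in N, with changes of 0.21 ± 0.18 in S and 0.36 ± 0.18 in NS that were not called.

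No subunit was called when discs with both changes were compared with either single change. In NS against N, 0 of 30 rose and 0 fell (edgeR; 2 with an unadjusted p under 0.05, against 27.6% of all genes), where 4.19% and 3.61% of all genes did, and DESeq2 called 0 of the 30 with 9.4% and 7.94% of all genes. The median was 0.41 with all libraries, 0.08 with length-corrected offsets and 0.04 without NS3 and S3. In the last of these 0 of the 30 were called in each direction (1 at an unadjusted p under 0.05, against 31.4% of all genes), against 8.79% and 8.25% of all genes. Every NS library exceeded every N library for 9 subunits, Rpn6 and Rpt3 among them, against 20.5% of all genes, and 0 were lower, against 21%.

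In NS against S, 0 of 30 rose and 0 fell (edgeR; 0 at an unadjusted p under 0.05, against 16.8% of all genes), where 1.51% and 2.18% of all genes did, and DESeq2 called 0 of the 30 with 4.08% and 5.15% of all genes. The median was 0.23 with all libraries, 0.07 with length-corrected offsets and -0.05 without NS3 and S3. In the last of these again 0 of the 30 were called (0 at an unadjusted p under 0.05, against 29.5% of all genes), against 7.76% and 5.45% of all genes. No subunit separated the NS from the S libraries in either direction, against 8.5% and 9.15% of all genes. The interaction asks whether NS departs from the sum of the N and S log2 changes, and it called 0 of 30 in each direction (edgeR; 0 at an unadjusted p under 0.05, against 13.2% of all genes), where 0.826% of all genes were called higher and 0.455% lower. DESeq2 called 0 of the 30 as well, with 3.1% and 1.79% of all genes. All 30 interaction estimates lay above 0, with a median of 0.33 and a median SE of 0.33. With length-corrected offsets and all libraries the median was 0.23 and 29 lay above 0. In the smaller set, without NS3 and S3, the median was 0.06, 22 lay above 0 and 0 were called (3 at an unadjusted p under 0.05, against 28.7% of all genes), against 6.23% and 3.09% of all genes. These comparisons share libraries, so their estimates are not independent of each other. S and NS also differ in stock and in the share of mutant cells, so NS against S and the interaction do not measure Notch and scribble alone.

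**Figure D4:**
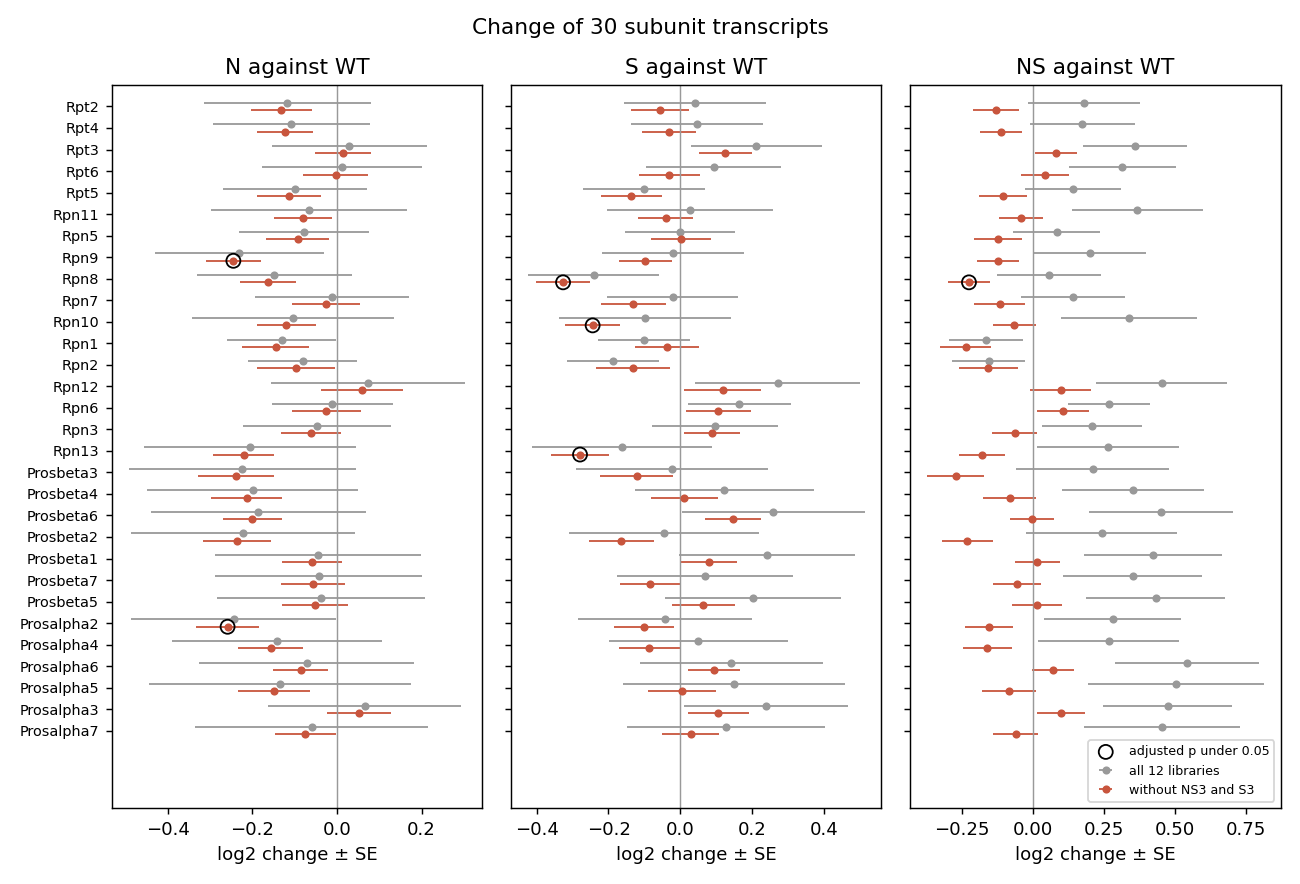
log2 change with SE of each of the 30 subunits in N, S and NS against WT, from the edgeR fit on all 12 libraries (grey) and on the 10 libraries without NS3 and S3 (red); open circles mark an adjusted p under 0.05. Grey estimates in NS lie mostly above 0 and red ones mostly below, and the circled subunits are Rpn9 and Prosalpha2 in N, Rpn8, Rpn10 and Rpn13 in S, and Rpn8 in NS.

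Rpt3R, a second copy of the ATPase gene Rpt3 (dm6, 3R, 9754735 to 9756510, minus strand), was the only member that edgeR called with all libraries, and it rose in discs fully mutant for scribble. Rpt3R read 3.38, 3.23 and 4.28 CPM in WT, 5.01, 4.95 and 3.38 in N, 10.8, 12.8 and 14.2 in S, and 5.86, 5.07 and 11.1 in NS, from 126 to 184 counts per library in WT and 410 to 530 in S. The S libraries stood above all WT and N libraries and above NS1 and NS2, and the library labelled NS3 fell inside their range. The log2 change in S against WT was 1.79 ± 0.31 (SE, n = 3 against 3; edgeR, adjusted p = 0.00277), which is 3.47-fold, and without NS3 and S3 it was 1.69 ± 0.24 (edgeR, adjusted p = 0.000584). It was past the threshold in 20 of 21 alternatives, with adjusted p from 4.71e-07 to 0.0672. With WT1 as the only wild type it was 1.91 ± 0.51 (edgeR, adjusted p = 0.0672).

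Rpt3R remained a minor transcript beside Rpt3. Per kilobase it stood at 1.61% ± 0.241 (SD, n = 3) of Rpt3 in WT, 1.93% ± 0.418 in N, 4.82% ± 0.148 in S and 2.47% ± 0.390 in NS. The neighbour CG8412, now named Alg12, overlaps 1.38% of the exon bases of Rpt3R on the other strand, and it read 902, 886 and 985 counts in WT and 1198, 907 and 882 in S. The 8 testis markers summed to 2.11, 1.78 and 9.39 CPM in S and 8.18, 5.79 and 1.44 in WT, most of it bam, and 3 to 5 of the 8 were at 0 in each S library against 2 to 4 in each WT library. The sperm-tail genes dj and Mst84Da were at 0 in all 3 S libraries, whereas Mst87F read 0.313, 0.437 and 0.564 CPM in S against 0.153, 0.0769 and 0.0931 in WT. With all libraries 0 of the 3 tested testis markers were called in S; without NS3 and S3 Mst87F was higher, at 1.75 ± 0.63 (edgeR, adjusted p = 0.0441), and bam lower, at -1.93 ± 0.69 (edgeR, adjusted p = 0.0432). The 9 fat body markers summed to 1206 to 13472 CPM in S against 315 to 951 in WT, with 1 called higher and 0 lower (edgeR). The 8 haemocyte markers summed to 505 to 782 CPM against 766 to 907, although 3 of them were called higher and 0 lower, with a median log2 change of 1.59. The 9 muscle and myoblast markers summed to 198 to 356 CPM against 203 to 276, with Mlc2 called higher at 2.72 ± 0.60 (edgeR, adjusted p = 0.00935) and 0 lower. The 6 neuron markers summed to 158, 18.5 and 17.8 CPM in S against 30.3 to 38.8 in WT. Of the 5 tested, para was called higher at 4.07 ± 1.13 (edgeR, adjusted p = 0.027) and 0 were lower. The level of para was 4.80, 0.250 and 0.537 CPM in S against 0.102, 0.154 and 0.0698 in WT, so S1 stood far above the rest. Of the 6 wing disc markers, 4 were called lower in S and 0 higher. These counts stand against 12.5% of all genes called higher and 10.6% lower. Without NS3 and S3 the haemocyte list gave 2 higher and 1 lower, with a median of 0.70. The muscle and myoblast list gave 1 higher and 3 lower, with a median of -0.71. The fat body list gave 1 and 0, the neuron list 2 and 0, and the wing disc list 0 and 4. In that set 23.4% of all genes were higher and 24.1% lower. The part of other cell types, testis included, in the Rpt3R level was not tested. Rpt3R lies on 3R, the arm of scrib1 and of the deficiency, so scribble loss and the different chromosomes of the S stock cannot be told apart.

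In NS against WT the change of Rpt3R was 1.02 ± 0.31 (SE; edgeR, adjusted p = 0.0364), 2.03-fold, and 9 of 21 alternatives kept it past the threshold. Without NS3 and S3 it was 0.58 ± 0.24 (edgeR, adjusted p = 0.0976), with the replicate number as a block 0.98 ± 0.31 (edgeR, adjusted p = 0.0529). Leaving out N1, N2, NS3, S2, WT1 or WT2 alone also lost the call, with edgeR adjusted p from 0.0223 to 0.123 over the 12 omissions. Rpt3R was lower in NS than in S by point estimate, and these groups differ in stock and in the share of mutant cells, mosaic in NS and whole in S, as well as in Notch, which cannot be told apart. The NS against S difference was -0.78 ± 0.31 (SE; edgeR, adjusted p = 0.227) with all libraries and -1.11 ± 0.27 (edgeR, adjusted p = 0.0275) without NS3 and S3, against 5.45% of all genes called lower, and it was -1.21 ± 0.25 (edgeR, adjusted p = 0.0214) without NS3 alone. The interaction was -1.07 ± 0.43 (SE; edgeR, adjusted p = 0.331) and -1.38 ± 0.35 (edgeR, adjusted p = 0.0396) in the same order, with 3.09% of all genes called lower in the smaller set, and -1.51 ± 0.33 (edgeR, adjusted p = 0.0443) without NS3 alone. Activated Notch alone gave 0.29 ± 0.31 in N against WT (edgeR, adjusted p = 0.787).

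**Figure D5:**
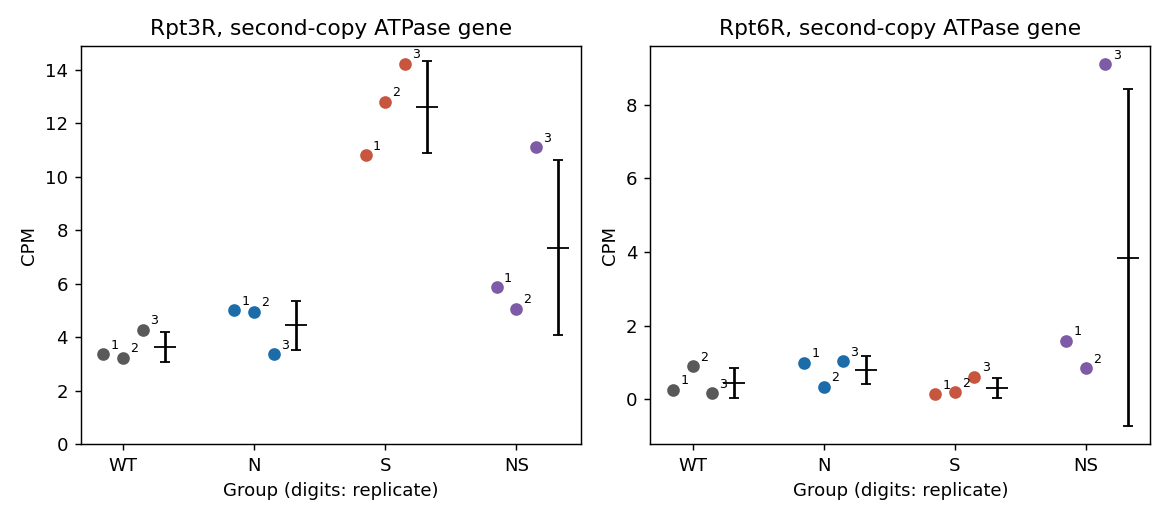
CPM of the second-copy ATPase genes Rpt3R (left) and Rpt6R (right) in each library (points, digits give the replicate; black, group mean and SD, n = 3). Rpt3R reads 10.8 to 14.2 CPM in S and 3.23 to 4.28 in WT, and Rpt6R reads 9.10 CPM in NS3 and at most 1.58 elsewhere.

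Rpt6R, the second copy of Rpt6 (3R, 30582198 to 30583697), was low, with 5 to 60 counts in each of 11 libraries and 318 in the library labelled NS3. It read 0.256, 0.897 and 0.163 CPM in WT, 0.992, 0.342 and 1.04 in N, 0.130, 0.187 and 0.617 in S, and 1.58, 0.837 and 9.10 in NS. The change in NS against WT was 3.13 ± 1.05 (SE; edgeR, adjusted p = 0.0516; DESeq2, 3.08 ± 0.98, adjusted p = 0.00826), and without NS3 and S3 it was 1.46 ± 0.76 (edgeR, adjusted p = 0.174).

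The other 13 second-copy forms, Rpt4R, Prosalpha6T and Prosbeta5R1 among them, held between 0 and 9 counts in all in each of 11 libraries and 511 in the library labelled NS3. There, 11 of the 13 were detected, with 15 to 92 counts each, whereas the highest single count elsewhere was 8; Rpn12R and Rpn13R were at 0 in all 12. A count of 0 allows up to 3 counts, which is 0.0662 to 0.148 CPM in these libraries and covers counting error only. In the same library the testis genes betaTub85D, Mst87F and dj had 806, 378 and 178 counts, against at most 16, 21 and 0 in any other, and bam, which acts in early germ cells, had 195 against 39 to 298. None of the 8 testis markers was at 0 there, and 2 to 5 of them were at 0 in each of the other 11. Whether the NS3 value of Rpt6R and of Rpt3R came from the same material was not tested.

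Genes that feed, cap or control the proteasome were called singly, at shares to be read against those of all genes. Of 12 regulators and assembly factors, 2 rose and 0 fell in NS against WT, 0 rose and 1 fell in S, and none was called in N (edgeR), with list medians of 0.32, 0.14 and 0.05. Over all genes 13.9% rose in NS and 10.6% fell in S. REG, which encodes the 11S activator cap, read 296, 269.8 and 297 CPM in WT, 323, 347 and 308 in N, 339.7, 358 and 370.1 in S, and 382, 375 and 554 in NS. Every S, N and NS library exceeded every WT library, and the change was called in NS, at 0.61 ± 0.16 (SE; edgeR, adjusted p = 0.02) with all libraries and 0.39 ± 0.08 (edgeR, adjusted p = 0.0055) without NS3 and S3. In S it was called in the smaller set, at 0.27 ± 0.08 (edgeR, adjusted p = 0.0229). maf-S, the small Maf partner of CncC, read 31.2, 30.03 and 36.6 CPM in WT, 44.9, 43.9 and 31.4 in N, 38.5, 44.0 and 47.9 in S, and 45.9, 53.9 and 94.9 in NS. Its NS libraries were above all WT libraries, with changes of 0.99 ± 0.25 (edgeR, adjusted p = 0.0181) and 0.60 ± 0.16 (edgeR, adjusted p = 0.0195) in the same order.

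Keap1, the adaptor that holds CncC in check, fell in S discs. It read 19.1, 19.8 and 22.4 CPM in WT, 23.1, 19.4 and 25.3 in N, 14.6, 13.1 and 14.6 in S, and 17.9, 16.4 and 12.6 in NS. All S libraries were below all WT libraries, with a change of -0.54 ± 0.15 (SE; edgeR, adjusted p = 0.031). In the set without NS3 and S3 the list of 12 gave 3 higher and 2 lower in S, against 23.4% and 24.1% of all genes. Among those higher in S was Sem1, which the choice by symbol left outside the 47 members, at 0.39 ± 0.10 (edgeR, adjusted p = 0.0131). In NS the same list gave 4 higher and 1 lower, against 16.9% and 16.8%, with cnc at 0.30 ± 0.09 (edgeR, adjusted p = 0.0239) and the proteasome-bound deubiquitinase Uch-L5 at -0.35 ± 0.08 (edgeR, adjusted p = 0.0108).

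Of 7 genes for ubiquitin shuttles and the p97 ATPase, Plap was the one called with all libraries, lower where 10.6% of all genes were lower in S and 10.4% in NS. Plap, whose yeast and mammalian relatives bind p97, read 177, 180.3 and 190.1 CPM in WT, 144, 140.0 and 155 in N, 117, 132 and 119 in S, and 125, 118 and 135 in NS. N, S and NS libraries were all below WT, and the change was called in S, at -0.57 ± 0.11 (SE; edgeR, adjusted p = 0.00441), and in NS, at -0.54 ± 0.11 (edgeR, adjusted p = 0.00646); in N it was called at -0.34 ± 0.07 (edgeR, adjusted p = 0.0131) only without NS3 and S3. Of 10 genes for ubiquitin-like proteins and their activating enzymes, 2 rose in NS, against 13.9% of all genes, and 0 were called in S and 0 in N. These were RpL40 and RpS27A, which encode ubiquitin fused to a ribosomal protein, at 0.72 ± 0.24 (edgeR, adjusted p = 0.0482) and 0.76 ± 0.25 (edgeR, adjusted p = 0.0489). Both were highest in the library labelled NS3, and without NS3 and S3 RpL40 stayed called, at 0.31 ± 0.10 (edgeR, adjusted p = 0.0358), while the E1 gene Uba1 and the polyubiquitin gene Ubi-p63E were lower, at -0.32 ± 0.08 (edgeR, adjusted p = 0.017) and -0.44 ± 0.12 (edgeR, adjusted p = 0.0206). In S the smaller set also called RpL40 and RpS27A higher, at 0.52 ± 0.10 (edgeR, adjusted p = 0.00257) and 0.47 ± 0.12 (edgeR, adjusted p = 0.0118), and the polyubiquitin gene Ubi-p5E lower, at -0.35 ± 0.12 (edgeR, adjusted p = 0.0378). The 2 and 1 of 10 in S stand against 23.4% and 24.1% of all genes, and the 1 and 2 of 10 in NS against 16.9% and 16.8%.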

How the data were processed

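The authors deposited 1 table of whole-number read counts per gene symbol and library. Per the labels' protocols, libraries were prepared from total RNA of pooled discs using a strand-marking mRNA kit. The submitters' processing notes name TopHat2 2.0.9, Bowtie2 2.1.0, HTSeq, edgeR, DESeq and the build dm6; their roles, the annotation release and how counting treated strand are not stated there. Overlapping genes on opposite strands, and close copies, may therefore share or lose reads. The table's 2 blank lines hold no counts and were left out.

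The test used edgeR 4.0.16 (R 4.3.3): filterByExpr kept 9444 genes, libraries were scaled by TMM, and a robust quasi-likelihood model with 1 coefficient per group was fitted over 12 libraries (8 residual degrees of freedom). A call means an adjusted p (Benjamini-Hochberg, over all tested genes) under 0.05. CPM is the count over the TMM-scaled total, and the SE is the log2 change over the square root of F. The labels do not say that pools came from separate crosses, so p-values measure only the spread between these pools. The model was run on simulated counts with known changes and the same spread for every gene and library. That run does not cover a library that departs from its group, such as NS3.

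Members and gene lists were chosen with earlier results of these data known. Any member may be named; values by library are given for called members and for the highest and lowest tested member of each role, and from each list up to 4 called genes. Alternatives were DESeq2 1.42.0, scaling by RLE size factors in place of TMM, scaling by library totals, no filter, only the groups compared, and a replicate block. Others were WT1 as the only wild type, offsets corrected for exon length (lowess, span 0.3, 9379 genes with a length), omission of NS3 and S3, and omission of each library. Deviations of same-numbered libraries from their group means correlated at 0.388 to 0.518 between S and NS. In no other pair of groups did every such correlation exceed 0.1. Deviations within a group are not independent, and S3 and NS3 share a shift against long transcripts. These correlations therefore cannot show whether libraries were paired, and the replicate numbers carry no stated meaning. Lengths and positions come from Ensembl BDGP6. No sequence is printed.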

Additional observations from a re-analysis of the deposited data

Results flagged for a closer look

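The 13 second-copy proteasome genes that were too low to test held 511 counts in all in the library labelled NS3, against 0 to 9 in each of the other 11 libraries and at most 9 in WT. They enter none of the group comparisons, and this signal stands above the WT libraries in 1 of 3 NS libraries only. All 8 testis markers were detected in the same library; their part in the counts was not tested.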

How the results depend on the processing

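Counts of tested members called changed as follows. Without NS3 and S3, 2 were lower in N, 3 in S and 1 in NS against WT, 1 was lower in NS against S and 1 in the interaction, and 0 were higher in NS against WT. Of all genes, 9.03%, 24.1% and 16.8% were lower there in N, S and NS against WT, and 16.9% were higher in NS. The share lower was 5.45% in NS against S and 3.09% in the interaction. With length-corrected offsets 2 were lower in S against WT, where 19% of all genes were, and 1 in NS against S, where 461 of 9379 genes were. With WT1 as the only wild type 0 were higher in S and 0 in NS. In NS against WT 0 were also higher with library totals, with no filter, with only the groups compared and with the replicate block. With the replicate block, 1164 of 9444 genes were higher there. The share of all genes is not given for WT1 alone, library totals, no filter or only the groups compared. DESeq2 called 2 higher in NS against WT, with 17.2% of all genes, and 1 higher in NS against S, with 4.08%. The replicate block changed no other count of members called. Fitting only the groups compared gives no interaction.

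Leaving out 1 library at a time, members higher in NS against WT ran from 0 to 2, with 0 without N1, N2, NS3, S2, WT1 or WT2 and 2 without NS1, NS2 or S3. Members lower ran from 0 to 1 in S against WT, in NS against S and in the interaction, each at 1 without NS3, and members higher in S against WT stayed at 1. All other counts stayed at 0. The shares of all genes called in these omissions are not given here. A change in the members can therefore not be told apart from a change in calls over all genes.

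Subunit estimates also changed sign. Of the 30, leaving out NS3 and S3 turned 20 in NS against WT, 21 in NS against S, 8 in the interaction, 7 in S against WT, 6 in NS against N and 1 in N against WT; with length-corrected offsets the numbers were 19, 3, 1, 15, 6 and 2. Among changes called with all libraries or without NS3 and S3, 2 turned under at least 1 alternative. Rpn10 in S against WT was -0.10 with all libraries and ran from -0.2416 without S3 to 0.0065 without S1. Rpn8 in NS against WT was 0.06 with all libraries, -0.12 with library totals, -0.23 without NS3 and S3, -0.20 with length-corrected offsets and, leaving out single libraries, from -0.22 without NS3 to 0.2157 without NS2; the cause was not tested.

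Limits: with 3 pools per group, the NS comparisons depend on the library labelled NS3. A 0 in the table is not evidence of absence, and S differs from WT in background.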

Other observations

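Among other large complexes, the 8 genes of the cytosolic chaperonin CCT, which folds actin and tubulin, had a median log2 change of 0.01 in N, 0.26 in S and 0.37 in NS against WT. Tcp-1zeta was the only one called with all libraries, in NS against WT at 0.57 ± 0.15 (SE; edgeR, adjusted p = 0.0201), and without NS3 and S3 it was called in S, at 0.44 ± 0.08 (edgeR, adjusted p = 0.00162), and in NS, at 0.37 ± 0.08 (edgeR, adjusted p = 0.00511). In that set Cct5 was called higher in S too, at 0.25 ± 0.08 (edgeR, adjusted p = 0.034), and Tcp-1eta in NS, at 0.31 ± 0.09 (edgeR, adjusted p = 0.0229), so 2 of 8 rose in each, against 23.4% and 16.9% of all genes. The Tcp-1zeta level was 451, 485 and 483 CPM in WT, 617, 678 and 632 in S, and 619, 615 and 878 in NS, so that all S and NS libraries lay above WT. The COP9 signalosome, a relative of the proteasome lid, removes Nedd8 from cullins. Of its 8 tested genes, 0 were called with all libraries in N, S or NS against WT (edgeR), with medians of -0.03, 0.04 and 0.19. Without NS3 and S3, CSN3 was called higher in S, at 0.30 ± 0.08 (edgeR, adjusted p = 0.0113), where 23.4% of all genes were. The all-library counts for both complexes stand against 1.05%, 12.5% and 13.9% of all genes higher in N, S and NS against WT. The shares lower were 2.03%, 10.6% and 10.4%.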
